A study of Homo sapiens with 6 samples.

Results

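Endothelial cells set the tone of the vessel wall by releasing vasoactive mediators, and 10 genes of their synthesis and reception were followed here in human umbilical vein endothelial cells (HUVECs) treated with an siRNA against ANRIL. The genes were NOS3, ASS1, GCH1, EDN1, ECE1, EDNRB, PTGS1, PTGS2, PTGIS and ACE. Their members on the array were all probe sets annotated to exactly 1 of these symbols, which gave 23 of 54613 tested probe sets and 10 of 19775 genes. The rule reads symbols and no measured value.

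HUVECs are primary cells of venous endothelium from umbilical cords. They had been transfected with a small interfering RNA (siRNA) directed at ANRIL, a long noncoding RNA, or with a scrambled siRNA as the control. Both groups received a non-liposomal transfection reagent and were grown in the same endothelial medium, which held serum, growth factors including VEGF, heparin and hydrocortisone. Each group had 3 Affymetrix U133 Plus arrays, 1 per transfected sample, hybridised with labelled total RNA. The sources used here do not give the time between transfection and harvest, the siRNA dose or the number of cord donors. They speak of sets of cells without saying whether these were separate cultures, so p-values measure the spread between these samples, which may be technical. The effector in the second group was this duplex, shown because it is the only difference between the groups that the labels name, with both strands 5′ to 3′ and no part in capitals.
siRNA strand 1: ggauaugugccaugaguaagaauaa
siRNA strand 2: uuauucuuacucauggcacauauccau
All 25 bases of the shorter strand pair with the longer strand of 27 bases.

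Nitric oxide and prostacyclin relax the smooth muscle below the endothelium, and endothelin opposes them. Endothelial nitric oxide synthase, encoded by NOS3, makes nitric oxide from arginine with tetrahydrobiopterin as cofactor, and nitric oxide relaxes smooth muscle through soluble guanylate cyclase. Endothelin-1, encoded by EDN1, is a strong constrictor that is cut from its precursor by the protease encoded by ECE1. The cyclooxygenases encoded by PTGS1 and PTGS2 convert arachidonic acid to prostaglandin H2, which the prostacyclin synthase encoded by PTGIS turns into prostacyclin, a dilator that also restrains platelets. Angiotensin-converting enzyme, encoded by ACE, makes the constrictor angiotensin II and breaks down bradykinin.

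Stretches of 250 bases before a transcription start are shown for NOS3 and EDN1, the genes of the dilator's synthase and of the constrictor's precursor, and for PTGS1 and PTGS2, the constitutive and the inducible cyclooxygenase, because the results below set these genes side by side. The sequences are those of RefSeq for GRCh38.p14, read on the strand of the gene from 5′ to 3′, and the capitals mark matches to the motifs named after them. The windows lie at chr7:150993532-150993781 on the plus strand, chr6:12290111-12290360 on the plus strand, chr9:122375052-122375301 on the plus strand and chr1:186680424-186680673 on the minus strand. RefSeq lists 2 starts for NOS3, 3 for EDN1, 2 for PTGS1 and 1 for PTGS2, and the start shown was chosen after the sequences were seen.
NOS3: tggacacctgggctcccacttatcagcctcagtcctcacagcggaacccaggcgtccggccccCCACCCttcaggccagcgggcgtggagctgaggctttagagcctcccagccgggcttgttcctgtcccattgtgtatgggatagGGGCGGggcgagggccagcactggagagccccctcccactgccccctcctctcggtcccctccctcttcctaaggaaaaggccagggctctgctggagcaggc
EDN1: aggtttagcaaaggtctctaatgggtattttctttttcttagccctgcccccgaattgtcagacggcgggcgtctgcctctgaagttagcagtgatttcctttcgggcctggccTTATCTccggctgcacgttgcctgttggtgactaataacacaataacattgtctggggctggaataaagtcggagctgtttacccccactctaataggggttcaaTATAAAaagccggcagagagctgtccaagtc
PTGS1: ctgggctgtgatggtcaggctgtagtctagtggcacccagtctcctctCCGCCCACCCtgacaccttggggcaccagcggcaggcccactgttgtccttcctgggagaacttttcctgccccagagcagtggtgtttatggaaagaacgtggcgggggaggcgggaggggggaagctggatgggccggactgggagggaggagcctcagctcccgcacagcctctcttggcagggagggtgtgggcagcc
PTGS2: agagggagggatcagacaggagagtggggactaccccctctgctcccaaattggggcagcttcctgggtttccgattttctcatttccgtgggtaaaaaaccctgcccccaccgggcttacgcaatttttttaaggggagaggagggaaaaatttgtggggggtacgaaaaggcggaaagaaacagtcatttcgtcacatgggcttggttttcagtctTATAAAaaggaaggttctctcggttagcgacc
Both strands were searched for motifs. TATAAA is the core promoter element near many regulated starts. GGGCGG is bound by Sp1 and related factors. The endothelial GATA factors recognise AGATAA. The AP-1 dimers recognise TGANTCA. Krüppel-like factors recognise CCACCC. The windows of EDN1 and PTGS2 held TATAAA on the strand of the gene, beginning 31 and 32 bases before the start, and those of NOS3 and PTGS1 held none. The NOS3 window held GGGCGG beginning at base 103 before the start and CCACCC at base 187. The PTGS1 window held GGGCGG on the opposite strand at base 202 and CCACCC at base 198, and these matches overlap. The EDN1 window held AGATAA on the opposite strand at base 136. None of the windows shown held TGANTCA. Among all 35116 windows of the same length, 10.7% held TATAAA, 42.6% GGGCGG, 9.17% AGATAA, 6.57% TGANTCA and 31.3% CCACCC. No match says only that the letters are not in this window, and the arrays did not measure binding at any of these places.

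The deposited values were log2 intensities after RMA, which corrects background, sets the arrays to a common distribution and summarises the probes of a probe set. Array medians lay between 6.137 and 6.176 on control arrays and between 6.183 and 6.229 on ANRIL siRNA arrays, so the groups did not overlap. Precision is set by having 3 arrays a group. A difference is the mean log2 value with ANRIL siRNA minus that of the controls, given with standard errors, 95% intervals and adjusted p-values from limma over all 54613 probe sets (Benjamini-Hochberg). ANRIL itself was read by 1 probe set at percentile 9.39 of mean signal, with a difference of −0.10 ± 0.10 (SE, adjusted p = 0.666), so these arrays did not check whether ANRIL was knocked down. All 10 endothelial markers looked up lay above the median signal, at percentiles 87.9 to 99.4, and the differences of all 10 were below 0, with a median of −0.17. None of the 10 passed the test (smallest limma adjusted p over genes 0.125), the groups of VWF, EGFL7 and ERG overlapped, and EGFL7 turned to 0.019 with cyclic loess. With an intensity-trended robust prior, in which the expected spread depends on signal, 2.15% of all genes were lower at a limma adjusted p under 0.05. Of the markers these included TIE1 (0.000167), ICAM2 (0.00018), CDH5 (0.00221), CLDN5 (0.00272), PECAM1 (0.021) and TEK (0.0312), and not VWF, KDR, EGFL7 or ERG. After cyclic loess with that prior TIE1, ICAM2, CLDN5 and CDH5 passed (0.00107, 0.00485, 0.0125 and 0.0212). In the signal deciles 9 and 10, where all 10 endothelial markers lie, 20.7% and 12.9% of all probe sets were above 0. The summed level of the 10 markers, the log2 of the summed linear intensities, was 15.63 to 15.73 on control arrays and 15.45 to 15.55 on ANRIL siRNA arrays. The same sum went from 11.41 to 11.50 against 11.24 to 11.32 for 6 smooth muscle markers, from 9.80 to 9.86 against 9.86 to 9.98 for 5 fibroblast markers, from 8.40 to 8.50 against 8.53 to 8.72 for 5 leukocyte markers and from 7.10 to 7.25 against 7.22 to 7.24 for 4 epithelial markers. Such sums weigh the brightest markers most. Single markers were below 0 for 3 of the 6 smooth muscle, 4 of the 5 fibroblast, 1 of the 5 leukocyte and 2 of the 4 epithelial genes. The median differences were 0.0014, −0.08, 0.18 and −0.006. The bright ACTA2 was at −0.26 and COL1A1, the only fibroblast marker above 0, at 0.15. Of the defining markers of other cells, PTPRC lay at percentile 14.7 of signal, LUM at 3.52, CDH1 at 16.3 and EPCAM at 39.9, and no marker was at 0, since RMA values have a floor. The brightest smooth muscle, fibroblast and leukocyte markers, ACTA2, COL1A1 and CD3E, lay at percentiles 92.9, 87.8 and 71.6. The fibroblast marker DCN lay at 63.3. CD3E differed by 0.22 ± 0.08, with every ANRIL siRNA array above every control (limma adjusted p over genes 0.199). In bulk samples fewer cells of a type and less RNA per cell cannot be told apart.

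No member changed past the threshold: 0 of 23 probe sets passed an adjusted p of 0.05, where 0% of all probe sets did, and the smallest adjusted p among the members was 0.233. The probe sets with the clearest signal for the nitric oxide genes NOS3, ASS1 and GCH1 were all below 0. They lay in signal deciles 9, 9 and 8. Of all probe sets, 20.7% were above 0 in decile 9 and 39.3% in decile 8. Within those deciles 5.71%, 11.7% and 37.7% of probe sets had a lower difference than NOS3, ASS1 and GCH1. The clearest probe sets for the prostaglandin genes were below 0 for PTGS1 and above 0 for PTGS2 and PTGIS. EDN1 differed by at most 0.15 at any of its 3 probe sets. At 5 of the 23 probe sets (21.7%) every ANRIL siRNA array lay below every control array, where 9.97% of all probe sets did so. Of probe sets above the median signal, 17.2% did so, against 5 of 18 member probe sets (27.8%). These 5 belonged to NOS3, ASS1, ECE1, PTGS1 and ACE. At 2 of the 23 (8.7%), of EDNRB and PTGS2, every ANRIL siRNA array lay above every control array, against 11% of all probe sets, which is near the background. The same 5 probe sets were those with an unadjusted p under 0.05 and a lower value, against 6.14% of all, and 0 members had an unadjusted p under 0.05 and a higher value, against 8.96% of all. Above the median signal, 5 of 18 member probe sets were lower at that p and 0 higher. Of all 27306 such probe sets, 2772 were lower and 1521 higher.

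Every probe set of all 10 genes is drawn in the plot of values by array.

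**Figure D1:**
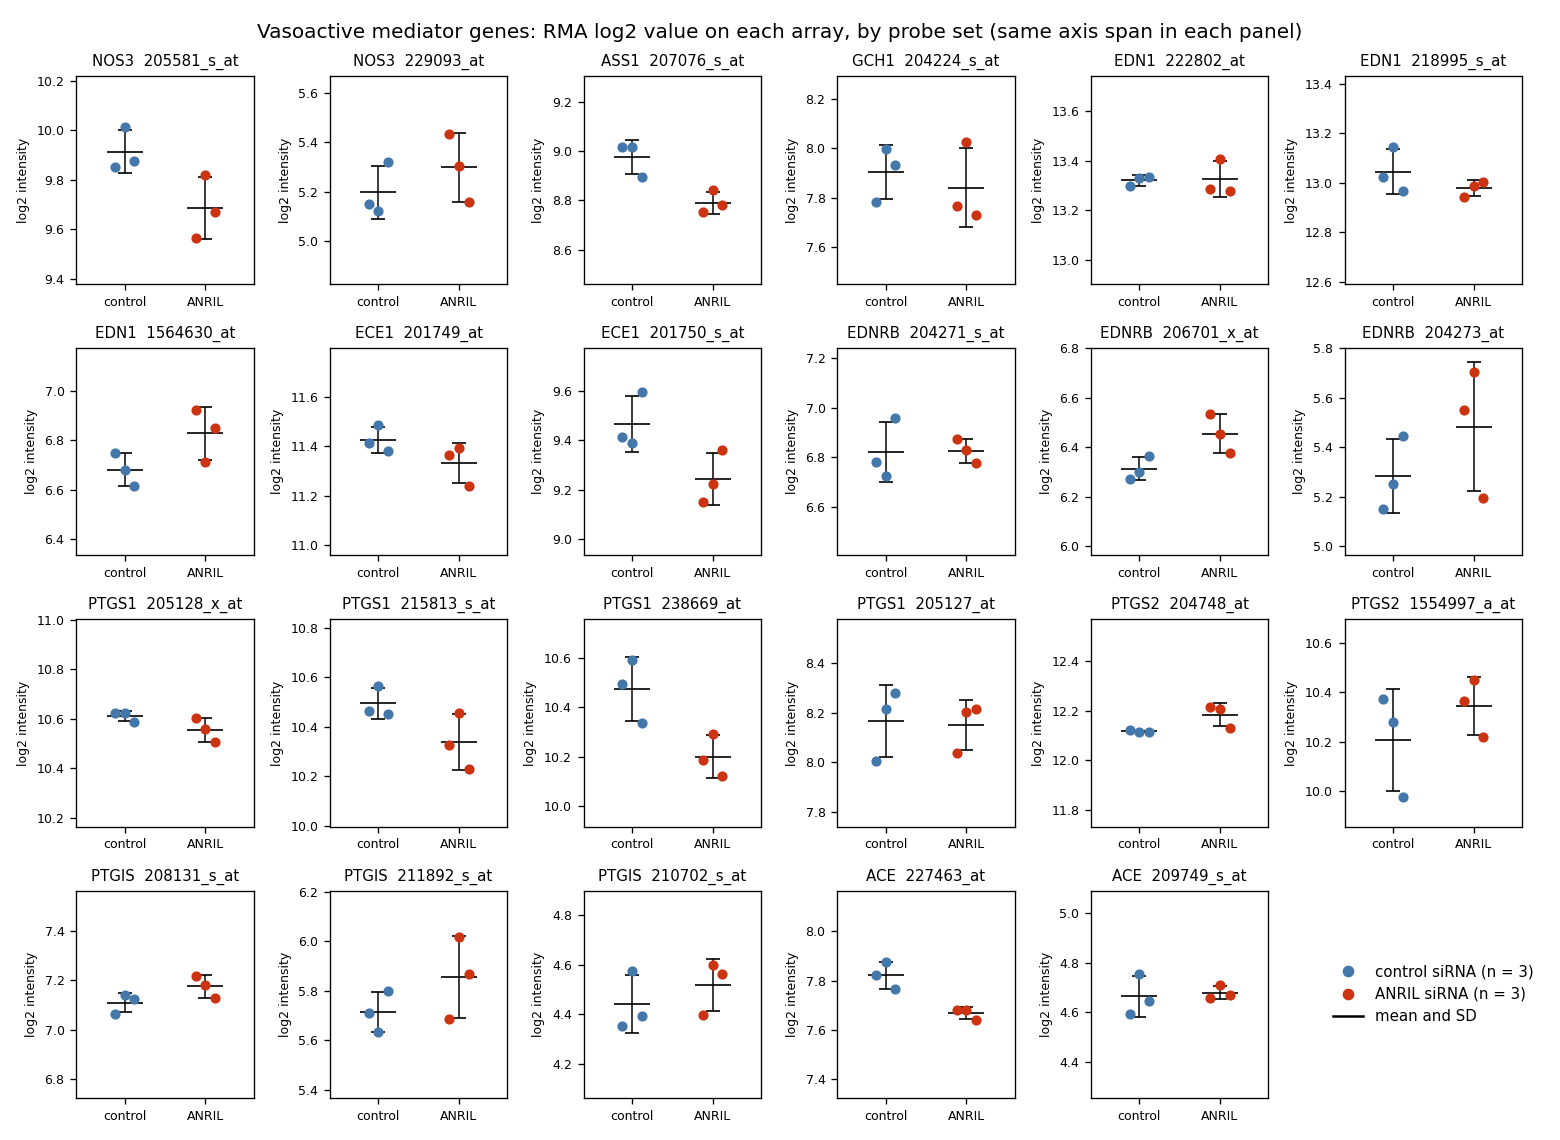
RMA log2 intensity (vertical axis, spanning the same range in each panel) of the 23 member probe sets on each of the 3 control siRNA arrays (blue) and 3 ANRIL siRNA arrays (red), with the mean and SD of each group. The red points lie wholly below the blue ones for NOS3 205581_s_at, ASS1 207076_s_at, ECE1 201750_s_at, PTGS1 238669_at and ACE 227463_at, and wholly above them for EDNRB 206701_x_at and PTGS2 204748_at.

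None of the nitric oxide genes passed the test. At their brightest probe sets the groups were apart for NOS3 and ASS1 and overlapped for GCH1. NOS3 at 205581_s_at read 9.85, 10.01 and 9.88 on the control arrays and 9.56, 9.82 and 9.67 on the ANRIL siRNA arrays. All 3 ANRIL siRNA arrays lay below all 3 controls, with the nearest pair, ANRIL siRNA replicate 2 and control replicate 1, close together. The means were 9.91 ± 0.09 and 9.68 ± 0.13 (SD, n = 3 each), a difference of −0.23 ± 0.08 (SE, 95% interval −0.41 to −0.04), or 1.17-fold lower (limma adjusted p = 0.266). It stayed between −0.30 and −0.17 when any 1 array was left out. The other NOS3 probe set, 229093_at, lay near the floor at percentile 32.9 of signal and gave 5.15, 5.12 and 5.32 in controls against 5.43, 5.30 and 5.16. There the groups overlapped and the difference was 0.10 ± 0.09 (95% interval −0.09 to 0.30), so the lower value for NOS3 rests on 1 of 2 probe sets. That one, 205581_s_at, carries the suffix _s_at of sets whose probes can match more than 1 transcript, and 229093_at does not. The endothelial markers given above had differences below 0 too, and their part in the result was not tested.

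ASS1 encodes argininosuccinate synthase, which regenerates arginine from citrulline, the by-product of nitric oxide synthesis. Its only probe set read 9.01, 9.02 and 8.89 in controls and 8.75, 8.84 and 8.78 with ANRIL siRNA. Again no ANRIL siRNA array reached the lowest control, which was replicate 3. The difference was −0.18 ± 0.07 (95% interval −0.33 to −0.03), or 1.14-fold lower (limma adjusted p = 0.27), and lay between −0.22 and −0.16 with any 1 array left out. The probe set ends in _s_at, a suffix that Affymetrix gives to sets whose probes can match more than 1 transcript, and ASS1 is known to have many processed pseudogenes, so its value is uncertain in that respect.

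GCH1 encodes GTP cyclohydrolase, the rate-limiting enzyme of tetrahydrobiopterin synthesis. It read 7.78, 8.00 and 7.93 in controls and 7.77, 8.02 and 7.73 with ANRIL siRNA. The highest value of all 6 arrays was an ANRIL siRNA array, replicate 2, and the groups overlapped fully. The difference was −0.06 ± 0.09 (95% interval −0.27 to 0.14, limma adjusted p = 0.767). It moved from −0.010 without ANRIL siRNA replicate 3 to −0.16 without ANRIL siRNA replicate 2. The difference of each nitric oxide gene kept its sign at these probe sets with a repeat of the quantile step, median centring and cyclic loess, and cyclic loess, which removes any shift that depends on signal, left −0.15 for NOS3, −0.13 for ASS1 and −0.04 for GCH1.

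The endothelin genes differed little at their brightest probe sets. EDN1 at 222802_at read 13.30, 13.33 and 13.33 in controls and 13.29, 13.41 and 13.28 with ANRIL siRNA. Of the ANRIL siRNA arrays 2 lay just below the controls and replicate 2 lay above them. The difference was 0.0043 ± 0.07 (95% interval −0.14 to 0.15, limma adjusted p = 0.981), and it turned to −0.046 with arrays centred on their medians and to −0.038 without ANRIL siRNA replicate 2. It rose to 0.064 with a repeat of the quantile step and to 0.079 with cyclic loess, after which every ANRIL siRNA array lay above every control. This probe set lay at percentile 99.3 of signal, where an array can be near saturation, so a change there may be understated. The second probe set, 218995_s_at at percentile 99.1 of signal, lay at −0.07 ± 0.07 and was 0.011 with cyclic loess, and the dimmer 1564630_at differed by 0.15 ± 0.08 (95% interval −0.02 to 0.32), with values of 6.62 to 6.75 in controls and 6.71 to 6.92 with ANRIL siRNA. The 3 probe sets thus gave 3 different sizes, and none excluded 0.

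ECE1, the endothelin-converting enzyme, was below 0 at both of its probe sets. At the brighter, 201749_at, the values were 11.41, 11.49 and 11.38 in controls and 11.37, 11.39 and 11.24 with ANRIL siRNA, and the groups overlapped. The difference there was −0.09 ± 0.07 (95% interval −0.25 to 0.06, limma adjusted p = 0.537), and −0.01 after cyclic loess. At 201750_s_at the values were 9.41, 9.39 and 9.59 in controls and 9.15, 9.22 and 9.36 with ANRIL siRNA. No ANRIL siRNA array reached the lowest control, although replicate 3 came close to it. That difference was −0.22 ± 0.08 (95% interval −0.41 to −0.04), or 1.17-fold lower (limma adjusted p = 0.275). After cyclic loess it was −0.15 and the groups overlapped.

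EDNRB encodes the endothelin B receptor, through which endothelial cells respond to endothelin by releasing nitric oxide and prostacyclin and by clearing the peptide. All 3 of its probe sets were above 0, and 1 of them, 204273_at, lay below the median signal of the array, at percentile 35.3. At the brightest, 204271_s_at, the values were 6.78, 6.72 and 6.96 in controls and 6.87, 6.83 and 6.77 with ANRIL siRNA, with full overlap and a difference of 0.0051 ± 0.08 that turned to −0.026 with cyclic loess, to −0.026 with a repeat of the quantile step and to −0.045 with arrays centred on their medians. At 206701_x_at the values were 6.27, 6.30 and 6.36 against 6.53, 6.45 and 6.38, with every ANRIL siRNA array above every control and a difference of 0.14 ± 0.07 (95% interval −0.01 to 0.29, limma adjusted p = 0.364). After cyclic loess that difference was 0.09 and the groups overlapped. At 204273_at the difference was 0.20 ± 0.13, with ANRIL siRNA replicates ranging from 5.19 to 5.70. Probe sets of this brightness were generally higher with ANRIL siRNA, with a median of 0.06 in decile 4 of signal, where that last probe set lies.

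The cyclooxygenase genes had opposite signs. All 4 probe sets of PTGS1 were below 0 and both of PTGS2 were above 0. PTGS1 at 238669_at read 10.49, 10.59 and 10.34 in controls and 10.19, 10.29 and 10.12 with ANRIL siRNA. All ANRIL siRNA arrays lay below the lowest control, replicate 3. The difference of −0.27 ± 0.08 (95% interval −0.46 to −0.09), or 1.21-fold lower, had the smallest p among the 23 probe sets and did not pass (limma adjusted p = 0.233). It lay between −0.34 and −0.22 with any 1 array left out and was −0.19 after cyclic loess, with the groups still apart.

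The other PTGS1 probe sets gave smaller differences. At 215813_s_at the values were 10.46, 10.57 and 10.45 in controls and 10.33, 10.46 and 10.23 with ANRIL siRNA, a difference of −0.16 ± 0.08 (95% interval −0.33 to 0.01) with ANRIL siRNA replicate 2 inside the range of the controls. At the brightest, 205128_x_at, the values were 10.62, 10.62 and 10.59 against 10.60, 10.56 and 10.50, a difference of −0.06 ± 0.06 that turned to 0.027 with cyclic loess and to 0.028 with a repeat of the quantile step. At the dimmest, 205127_at, the difference was −0.015 ± 0.09, and it became 0.018 with cyclic loess and 0.026 with a repeat of the quantile step. The suffixes _s_at and _x_at mark sets that can match other transcripts. Of the 2 PTGS1 probe sets without such a suffix, 238669_at and 205127_at, 1 had separated groups.

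PTGS2 at 204748_at read 12.12, 12.11 and 12.12 in controls and 12.21, 12.21 and 12.13 with ANRIL siRNA. The controls were nearly identical (SD 0.003), and ANRIL siRNA replicate 3 lay just above them while the other two lay higher. The difference was 0.07 ± 0.06 (95% interval −0.07 to 0.21, limma adjusted p = 0.626), where the standard error is larger than these arrays alone would give because limma draws the spread of each probe set towards that of all. At 1554997_a_at the values were 10.37, 10.28 and 9.98 in controls and 10.36, 10.45 and 10.22 with ANRIL siRNA, a difference of 0.14 ± 0.11 with overlap. This value rests on control replicate 3, the lowest array, without which it was 0.019, and it was 0.22 without control replicate 1. Both probe sets lie in the brightest decile, where the median difference of all probe sets was −0.08. Of the probe sets in that decile 97.7% had a lower difference than 204748_at and 99.4% a lower one than 1554997_a_at. For PTGS1 238669_at, in the same decile, 1.74% did.

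After cyclic loess, PTGS2 differed by 0.15 and 0.22 at its 2 probe sets, with no overlap at 204748_at. That scaling combined with an intensity-trended robust prior, in which the expected spread depends on signal, gave PTGS2 an adjusted p of 0.0442 over genes at its brightest probe set and of 0.0888 over probe sets. In that setting 134 of all 19775 genes and 78 of all 54613 probe sets passed. Among the 16 settings run for PTGS2 at the gene level this was the 1 that passed, and its adjusted p ranged from 0.0442 to 0.902 over them. The difference stayed above 0 in all 16, from 0.02 to 0.15. The difference between PTGS1 and PTGS2 was not itself tested.

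PTGIS, the prostacyclin synthase gene, was above 0 at all 3 probe sets. At the brightest, 208131_s_at, the values were 7.07, 7.14 and 7.12 in controls and 7.22, 7.18 and 7.13 with ANRIL siRNA. ANRIL siRNA replicate 3 lay among the controls and the other two above them. The difference was 0.07 ± 0.06 (95% interval −0.08 to 0.21, limma adjusted p = 0.647) and 0.05 after cyclic loess. The dimmer 211892_s_at and 210702_s_at, the latter near the floor, lay at percentiles 42.8 and 18.7 of signal and differed by 0.14 ± 0.09 and 0.08 ± 0.08, each with overlap. Probe sets of like signal were higher in general, by a median of 0.06 in both of those deciles.

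ACE at 227463_at read 7.82, 7.88 and 7.76 in controls and 7.68, 7.68 and 7.64 with ANRIL siRNA. The ANRIL siRNA arrays lay close together (SD 0.02) and all below the controls. The difference was −0.15 ± 0.06 (95% interval −0.30 to −0.01), or 1.11-fold lower (limma adjusted p = 0.309). It lay between −0.18 and −0.13 with any 1 array left out and was −0.14 after cyclic loess, with the groups still apart. The second ACE probe set, 209749_s_at, lay at percentile 22.3 of signal, with values of 4.59 to 4.76 in controls and 4.66 to 4.71 with ANRIL siRNA, and its difference of 0.01 ± 0.07 became −0.045 with cyclic loess and −0.046 with a repeat of the quantile step. RefSeq lists 2 transcription starts for ACE and the files do not say which transcripts either probe set reads.

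**Figure D2:**
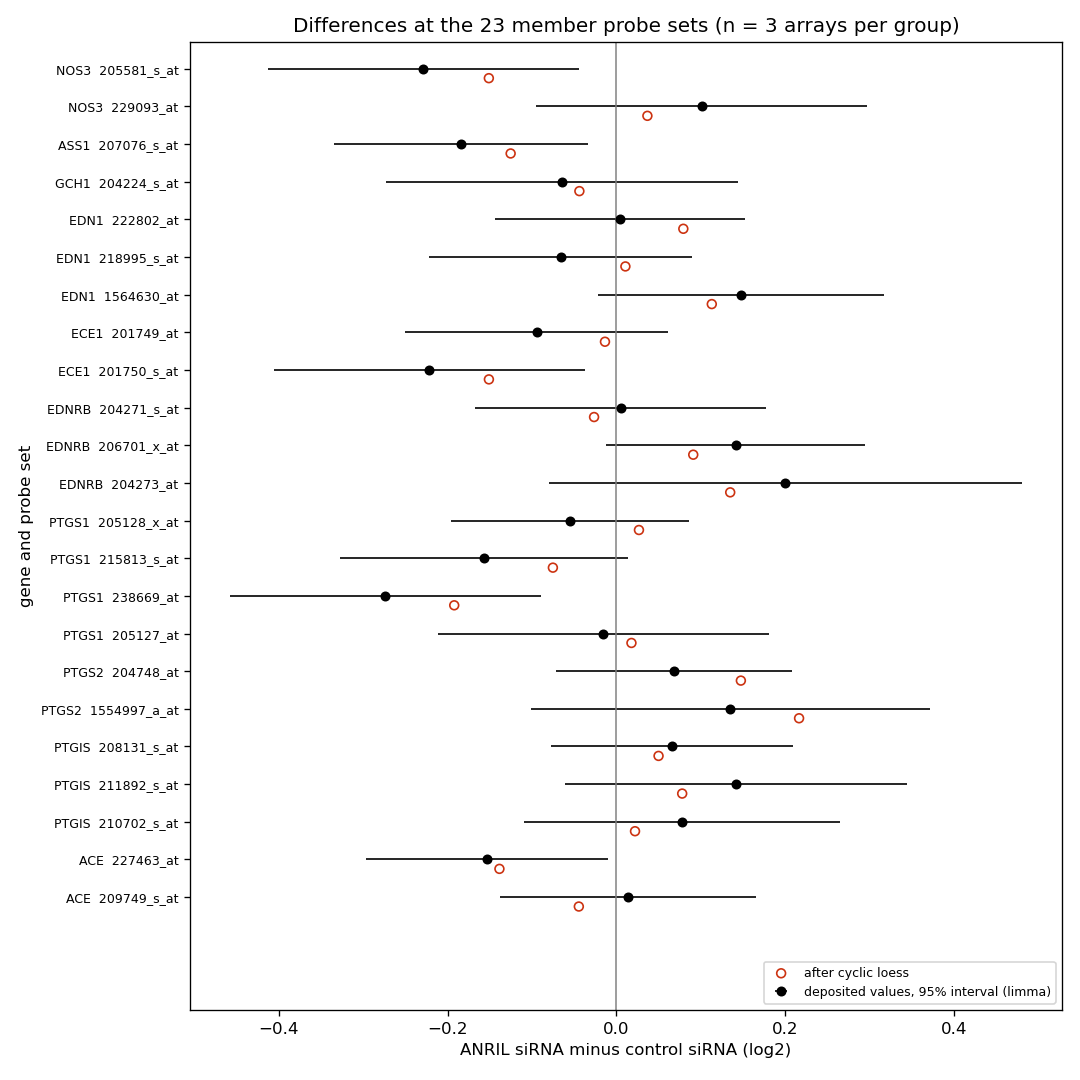
Difference between ANRIL siRNA and control siRNA (horizontal axis, log2) for each of the 23 member probe sets, with limma 95% intervals from the deposited values (black, n = 3 arrays per group) and the difference after cyclic loess (red rings). The intervals of NOS3 205581_s_at, ASS1, ECE1 201750_s_at, PTGS1 238669_at and ACE 227463_at lie wholly below 0, none lies wholly above 0, and no difference passed the adjusted threshold.

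Probe sets of 1 gene did not always move alike. Of the 8 genes with more than 1 probe set, 2 (ECE1 and PTGS1) had all of them below 0, 3 (EDNRB, PTGS2 and PTGIS) had all above 0, and 3 (NOS3, EDN1 and ACE) had both signs. For each gene with both signs, the dimmest probe set was the one above 0 or among those above 0. When the probe sets of a gene were averaged, the difference was −0.06 for NOS3, −0.16 for ECE1, −0.13 for PTGS1, −0.07 for ACE, 0.10 for PTGS2, 0.12 for EDNRB and 0.10 for PTGIS, and none passed (limma adjusted p of 0.184 to 0.578 for these 7).

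How far a member stood from other probe sets depended on its signal. Among all probe sets, those of signal decile 4 had a median difference of 0.06 and those of decile 10 of −0.08, and 12.9% lay above 0 in decile 10. Of the 23 member probe sets 12 were above 0 and 11 below, with a median of 0.0043 against 0.012 over all probe sets. The 5 members below the median signal were all above 0 (median 0.10, against 0.06 for all probe sets below it), and 7 of the 18 above the median signal were above 0 (median −0.06, against −0.03). After cyclic loess 13 of the 23 were above 0, with a median of 0.02, and 9 of the 18 brighter ones. Measured from the median of their decile, the members that stood farthest were PTGS2 1554997_a_at at 0.21, PTGS1 238669_at at −0.20, NOS3 205581_s_at at −0.16, ECE1 201750_s_at at −0.15, PTGS2 204748_at at 0.14 and EDNRB 204273_at at 0.14. The first of these rests on control replicate 3, and the last moved from 0.09 without ANRIL siRNA replicate 2 to 0.34 without replicate 3, before the decile median is taken off. After cyclic loess 4 of the 18 brighter member probe sets (22.2%) were lower without overlap, those of NOS3, ASS1, PTGS1 and ACE, where 10.7% of all probe sets above the median signal were. At 2 of the 18 (11.1%), EDN1 222802_at and PTGS2 204748_at, they were higher without overlap, against 11.3% of all.

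**Figure D3:**
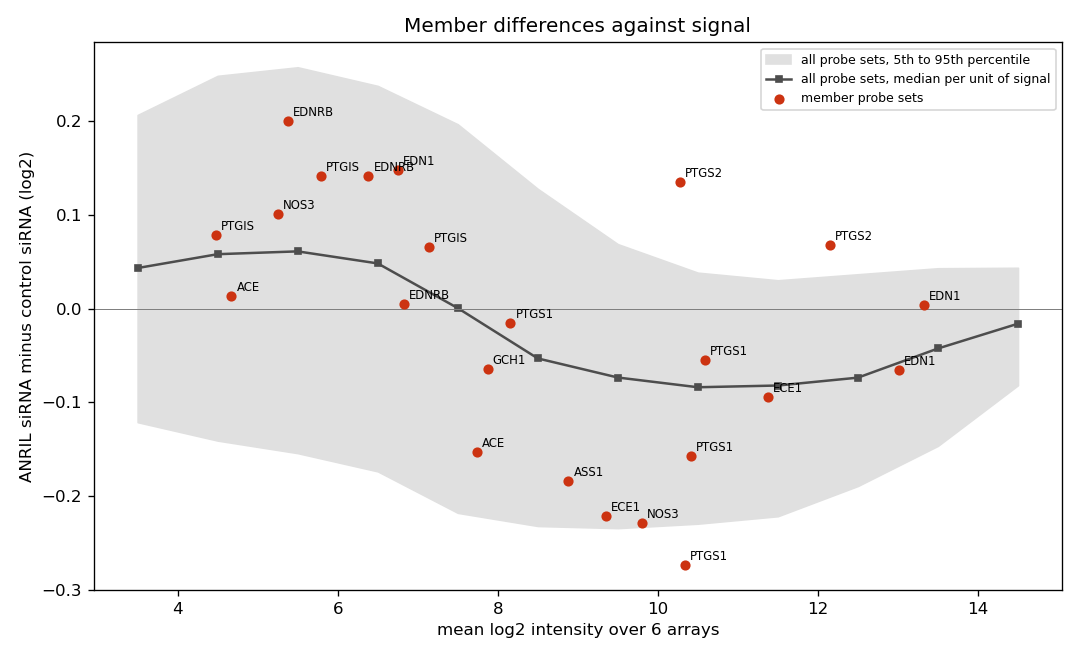
Difference between ANRIL siRNA and control siRNA (vertical axis, log2) against mean log2 intensity over the 6 arrays (horizontal axis) for the 23 member probe sets (red), with the median (line) and the 5th to 95th percentile (grey) of all probe sets in steps of 1 log2 unit of signal that hold at least 100 probe sets. Both PTGS2 probe sets lie above the grey band and PTGS1 238669_at lies below it, while most members lie inside.

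The wider pathways were read from 80 further genes, of which 71 had a probe set naming that gene alone and the other 9 were not analysed here. With 1 probe set per gene, the brightest, 0 of the 71 passed in either direction (limma adjusted p over 19775 genes), where 0% of all genes did, and 11 had an unadjusted p under 0.05, against 18% of all genes. Of the 71, 35 were above 0 and 36 below, with a median of −0.012 against −0.0046 over all genes. Groups did not overlap at 11 genes that were lower and 6 that were higher, where 12.8% and 10.6% of all genes did so.

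Of the 23 measured genes of nitric oxide synthesis and response, 0 rose and 0 fell by the test, 10 were above 0 and the median was −0.02. CAV1 encodes caveolin-1, which binds and holds back endothelial nitric oxide synthase. It read 13.22, 13.21 and 13.07 in controls and 12.95, 12.92 and 12.86 with ANRIL siRNA, with no overlap and a difference of −0.25 ± 0.07 (limma adjusted p = 0.154). ARG2, an arginase that competes with nitric oxide synthase for arginine, differed by the same amount, −0.25 ± 0.07 (adjusted p = 0.158), from 8.49, 8.72 and 8.61 to 8.39, 8.34 and 8.33, but its second probe set had the opposite sign. PDE5A, which degrades cyclic GMP, differed by 0.17 ± 0.09 with overlap (adjusted p = 0.319). The cofactor genes PTS, SPR and QDPR lay between −0.08 and −0.02, and the arginine transporter SLC7A1 at 0.08 ± 0.07. After cyclic loess PTS, SPR, QDPR and SLC7A1 were at 0.064, −0.00047, 0.057 and 0.16. For QDPR, 1 of 2 probe sets had the opposite sign to its brightest.

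Of the 6 measured endothelin genes 0 passed, 2 were above 0, none had separated groups and the median was −0.02. EDN2 differed by 0.14 ± 0.07, ECE2 by −0.03 ± 0.07 and FURIN, a protease of the endothelin precursor, by −0.05 ± 0.07 (adjusted p of 0.34, 0.836 and 0.725). With cyclic loess FURIN was at 0.019.

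Of the 19 prostanoid genes 0 passed, 8 were above 0 and the median was −0.02. Groups were apart at 5 lower and 2 higher genes, where 12.8% and 10.6% of all genes did so. The 2 higher ones, PTGFR and PTGDR, lay at percentiles 16.6 and 17.5 of signal. PLA2G4C, a cytosolic phospholipase that releases arachidonic acid, had the largest difference of the 71, −0.34 ± 0.07, from 8.82, 8.97 and 8.77 in controls to 8.54, 8.52 and 8.47 with ANRIL siRNA (limma adjusted p = 0.138). The groups lay well apart there, but 1 of its 2 probe sets had the opposite sign. The main cytosolic phospholipase gene PLA2G4A differed by −0.09 ± 0.06. PTGER4, a prostaglandin E2 receptor, differed by −0.19 ± 0.06 with groups apart at 11.46, 11.54 and 11.53 against 11.31, 11.35 and 11.29 (adjusted p = 0.172), with 1 of 2 probe sets of that sign. PPARD, a nuclear receptor, differed by −0.14 ± 0.06 (adjusted p = 0.282). The prostacyclin receptor gene PTGIR lay at 0.04 ± 0.06 and the prostaglandin E synthase gene PTGES at 0.14 ± 0.08.

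Of the 10 measured angiotensin and kinin genes 0 passed and 8 were above 0, with a median of 0.10 that became 0.04 after cyclic loess. Only 4 of the 10 lay above the median signal. ATP6AP2, the prorenin receptor, differed by −0.17 ± 0.06 and XPNPEP1, an aminopeptidase that cleaves bradykinin, by −0.18 ± 0.06, both with groups apart (adjusted p = 0.186 for each), and angiotensinogen, AGT, by 0.14 ± 0.08 with overlap (adjusted p = 0.396). For ATP6AP2 and XPNPEP1 alike, only 2 of 3 probe sets were below 0.

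Of the 13 other vasoactive peptides and regulators 0 passed and 7 were above 0, with a median of 0.08. NR3C1, the glucocorticoid receptor, was higher on every ANRIL siRNA array, at 10.82, 11.00 and 10.83 against 10.62, 10.75 and 10.72, a difference of 0.18 ± 0.07 (adjusted p = 0.226). Of its 5 probe sets, 4 had that sign. The clearance receptor gene NPR3 differed by 0.19 ± 0.09 and the peptide gene APLN by −0.18 ± 0.08 (adjusted p of 0.28 and 0.281), each with overlap. KLF2, a flow-induced factor that is known to drive NOS3, differed by −0.13 ± 0.06 with groups apart (adjusted p = 0.293), and by −0.05 after cyclic loess, but 1 of its 2 probe sets had the opposite sign. KLF4 lay at −0.022 ± 0.07 and became 0.053 with cyclic loess.

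**Figure D4:**
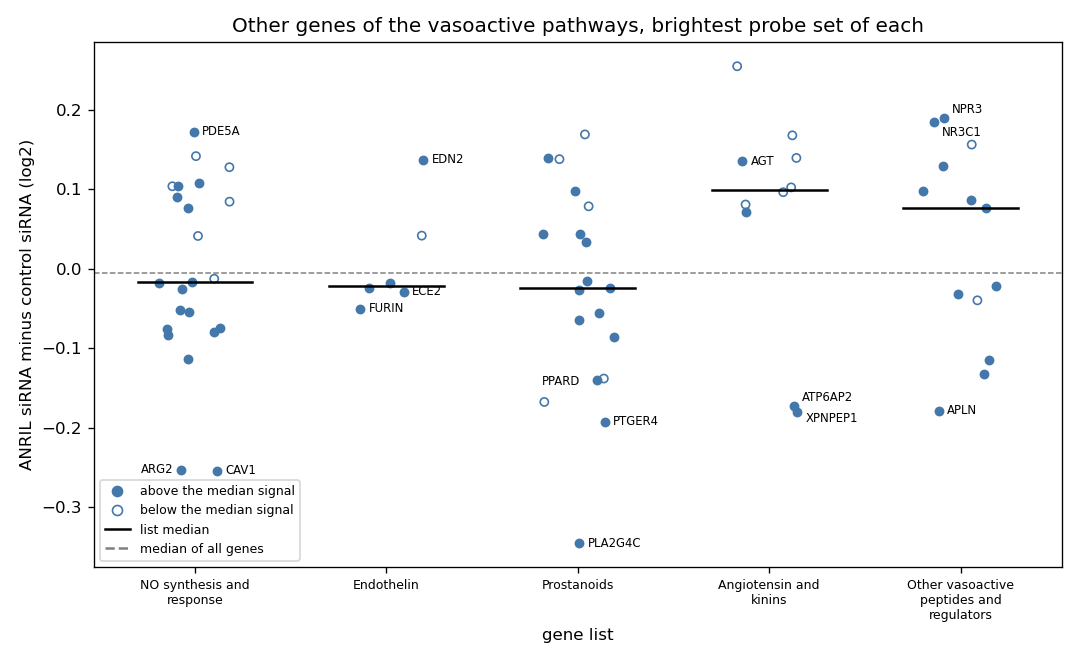
Difference between ANRIL siRNA and control siRNA (vertical axis, log2) at the brightest probe set of each of 71 further pathway genes, by list, with genes above (filled) and below (open) the median signal, the median of each list (black) and the median of all genes (dashed). PLA2G4C, CAV1 and ARG2 lie lowest and none of the 71 passed the adjusted threshold.

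With the intensity-trended robust prior, 6 of the 71 genes were lower past the threshold and 0 higher, against 2.15% and 0.582% of all genes. The 6 were CAV1, PLA2G4C, ATP6AP2, PTGER4, ARG2 and XPNPEP1 (adjusted p = 0.00137, 0.00718, 0.015, 0.0268, 0.0454 and 0.0496). No member probe set passed with that prior, against 0.577% of all probe sets lower and 0.0531% higher. The nearest were PTGS1 238669_at at 0.0639 and NOS3 205581_s_at at 0.118, and over genes NOS3 was at 0.0543. After cyclic loess with the same prior, CAV1 and PLA2G4C were again lower past the threshold, and SLC7A2, an arginine transporter, and NR3C1 were higher (adjusted p = 0.034, 0.0257, 0.0442 and 0.0114). Of all 19775 genes, 134 passed there in either direction. On the deposited values SLC7A2 differed by 0.11 ± 0.07 with overlap (limma adjusted p = 0.427), and 2 of its 3 probe sets had that sign.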

How the data were processed

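The deposited table held a log2 value for each of 54675 probe sets on each of 6 arrays. The authors' tools, per the submitters' processing notes, were RMA, affy and limma. Versions and roles are not stated there. From these values 62 control probe sets were left out. Genes came from the platform annotation, updated through Entrez identifiers in the RefSeq table of GRCh38.p14: 41091 probe sets had 1 symbol, 1801 several and 11721 were not listed. The values carry no genome build.

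Here limma 3.58.1 (lmFit, then eBayes, constant prior) was run in R 4.3.3 with group as the only term, two-sided, adjusted by the Benjamini-Hochberg method over all probe sets or, for genes, over the brightest probe set of each of 19775 genes, at a threshold of 0.05. On simulated data this fit recovered 69% of 1.5-fold and 89% of 2-fold changes, with 7 false calls. Changes as small as those of the members were not simulated. All member probe sets were named, and of the other pathway genes the 3 of smallest p above the median signal in each of 5 lists. The others were named after their values were seen: PTS, SPR, QDPR, SLC7A1, SLC7A2, PLA2G4A, PTGIR, PTGES, KLF2 and KLF4. Members, lists and alternatives were chosen with earlier results of these data known.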

Additional observations from a re-analysis of the deposited data

How the results depend on the processing

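No member probe set was called in the fit used here or under any of the 14 alternatives run on probe sets. Over all features, the intensity-trended robust prior called 344 probe sets, 541 genes and 6 pathway genes, with cyclic loess added 78, 134 and 4. Centring arrays on their medians called 4 probe sets and 32 genes, and testing above the median signal only called 1 and 32. The other alternatives called 0.

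At the brightest probe sets, NOS3 turned to 0.10 without _s_at and _x_at probe sets. EDN1, at 0.0043, turned to −0.0145 with array weights and −0.046 with centring, and ranged from −0.0376 to 0.0277 with 1 array left out. It was 0.064 with a repeat of the quantile step and 0.0793 with cyclic loess under either prior. EDNRB turned to −0.0262 with a repeat of the quantile step, to −0.0265 with cyclic loess under either prior and to −0.0452 with centring, and ranged from −0.0441 to 0.0739 with 1 array left out. PTGS1 turned to 0.0276 with a repeat of the quantile step and to 0.0267 with cyclic loess under either prior. ASS1, GCH1, ECE1, PTGS2, PTGIS and ACE kept their sign in every setting run. ASS1, GCH1 and PTGIS had no value without _s_at and _x_at probe sets.

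With the replicate number as a block, 0 probe sets, 0 genes and 0 members were called. Deviations of same-numbered arrays correlated at 0.06, 0.14 and −0.04, so the numbers were not taken to pair the samples, and not every array correlated best with its own number. Causes of these shifts were not tested. With 3 arrays per group, differences inside the printed intervals of the members were not resolved. Signals near the floor or near saturation limit NOS3 229093_at, EDNRB 204273_at, ACE 209749_s_at, PTGIS 210702_s_at and EDN1.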
